A study of Mus musculus with 22 samples.

Results

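CD4+ T cells of scurfy origin, carrying either of 2 vectors, were compared as 1 side with wild-type regulatory T cells (WT Treg) that had lived in the same kind of host. Scurfy mice lack a working Foxp3. In the FOXP3 group (10 libraries, 5 codes) lymph node CD4+ T cells of young scurfy mice had received human FOXP3 together with the surface tag LNGFR. The LNGFR group (6 libraries, 3 codes) had received the empty vector with that tag. The WT Treg group (6 libraries, 3 codes) were CD4+CD25+ cells with the CD45.1 allele of Ptprc. All hosts, in every group, were scurfy mice of 10 days given cyclophosphamide (50 mg/kg), with cells injected on day 14 and human IL-2 given afterwards (1000 IU/g, daily for 5 days, then weekly). On day 50, 1000 cells per library were taken from lymph nodes by 2 rounds of sorting, on LNGFR or on CD45.1. All 22 libraries of the series entered. Titles give 11 codes with 2 libraries each, which were summed, so that a code counts as 1 replicate. Whether a code is 1 mouse is not stated, so p-values measure the spread between codes, part of which may be technical.

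The comparison set the mean of the FOXP3 and LNGFR groups, each weighted equally, against WT Treg, and then looked for genes that lay on the same side in both vector groups. It asks which differences from Treg the FOXP3 vector left in place. Donor genotype, the kind of cell transferred (CD4+ or CD4+CD25+), the vector and the sorted marker all differ between the sides, and their parts cannot be told apart. Every sample carries the same strain (C57BL/6) and the same scurfy genotype label, WT Treg included, so that label does not separate donor from host. The FOXP3 and WT Treg libraries are both labelled CD4 Treg cells and the LNGFR libraries CD4 conventional T cells.

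As background, Treg restrain other T cells and depend on the transcription factor Foxp3, whose gene is on the X chromosome. Without it, conventional CD4+ T cells expand, make effector cytokines and invade skin, lung and gut. T cells reach such tissues through chemokine receptors and integrins, and Treg further differ from conventional cells in surface molecules that handle TGF-beta and IL-2 and in a smaller output of cytokines.

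Code totals ran from 8344444 to 10376164 counts in the FOXP3 group, 3109515 to 7881352 in the LNGFR group and 1154626 to 7088371 in WT Treg. Both libraries of WT Treg code E2 and 1 library of LNGFR code G1 were weak (332570 to 641980 counts), with 29.1% to 58.7% of their counts on repeat-derived gene models, against 2.21% to 4.50% in the other libraries. E2 is 1 of only 3 WT Treg codes, so the named calls and list counts are also given without it, which leaves 2. Levels per code are given as CPM, read counts scaled by the effective library size of the code, which includes the TMM normalization factor. That factor was 0.704 for E2 and 0.980 to 1.07 for the other codes. The effective library of E2 was 759749, against 1154626 counts in total. Its CPM values are thus higher than counts scaled by that total would be. The 10 T-cell genes (Cd3e, Cd4, Trac and others) were present in every code. They summed to 4278 to 6761 CPM in the FOXP3 group, 5977 to 7834 in LNGFR and 2846 to 7140 in WT Treg. The 12 B-cell genes summed to 159 to 5966 CPM in the FOXP3 group (highest in N3), 612 to 1820 CPM in LNGFR (highest in G1) and 153 to 266 CPM in WT Treg. Of these 12, 11 were higher on the scurfy-origin side and 0 were called, with a median log2 difference of 2.53. The part of B-cell RNA in the results below was not tested. In bulk samples such as these, fewer cells with a transcript and less of it per cell cannot be told apart.

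Of 15462 genes tested with edgeR's quasi-likelihood test, 72 were higher (0.466%) and 141 lower (0.912%) in the scurfy-origin cells at a Benjamini-Hochberg adjusted p under 0.05, together 1.38%. At an unadjusted p under 0.05 there were 2727. A called gene was counted as alike in both vectors when each vector group differed from WT Treg by at least 1 on the log2 scale (2-fold) in the same direction and the 2 vector groups differed from each other by less than 1. By that rule 39 genes were higher (0.252%) and 92 lower (0.595%) in both. The rule does not ask that each vector group pass the test on its own: 14 of the 39 and 8 of the 92 did, among them Cxcr6, Ccr1, Cysltr1, Vipr1, Fcgrt and Yod1, which were higher, and Ctse, Cpq, Cxcr4, Ppm1l, Ift80 and Tbc1d30, which were lower. Ccr3, Ccr9, Il10 and Tgfbr1 passed for LNGFR alone, with adjusted p = 0.0842, 0.0842, 0.0522 and 0.0519 for FOXP3. Leaving out E2 gave 84 higher and 113 lower calls (1.23% of 16065 genes), of which 40 and 60 met the rule (0.622% in all). The genes that met it in both fits were 28 higher and 42 lower. These 70 are the base of what follows. The codes of the 2 sides did not overlap for 38 of the 39 higher and 60 of the 92 lower genes, against 2.66% and 2.99% of all tested genes in those directions. The same values picked these genes, so this separation is in part built in and is no further support. Being less than 2-fold apart is a point estimate. The 95% interval of the difference between the vector groups lay wholly within 1 for 11 of the 39 higher and 14 of the 92 lower genes. A further 31 higher and 46 lower calls had the vector groups 2-fold or more apart. Since both vector groups are set against the same WT Treg codes, their 2 differences share that error. 

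**Figure D1:**
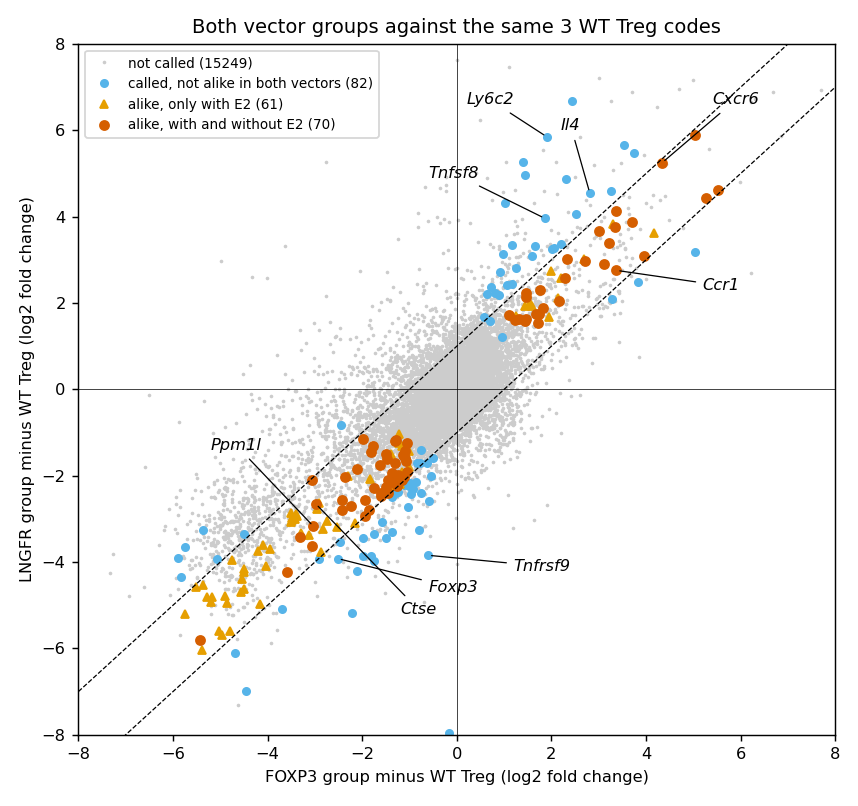
Each point is 1 of the 15462 tested genes, with the log2 fold change of the FOXP3 group against WT Treg on the x axis and that of the LNGFR group on the y axis; both axes use the same 3 WT Treg codes, so the diagonal spread of all points is in part built in, and 10 genes lie outside the axes. Dashed lines mark a difference of 1 between the vector groups. The 70 genes that met the rule with and without E2 lie between the lines, 1 or more from 0 on both axes, and Foxp3, Il4, Tnfsf8, Ly6c2 and Tnfrsf9 lie outside them.

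Calls depended on which codes entered. Of the 131 genes that met the rule, 26 were called in each of the 11 fits that left out 1 code, 13 higher and 13 lower. The higher ones with a gene name were Cxcr6, Ccr1, Cysltr1, Vipr1, Fcgrt, Yod1, Hip1, Evi2a and Chsy1. The lower ones were Ccr9, Cxcr4, Ctse, Cpq, Cpe, Slc15a2, Ppm1l, Ift80, Pard6g, Ptprv and Tbc1d30. Leaving out LNGFR code G2 had a large effect, with 35 higher and 24 lower calls.

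Foxp3 itself was read first as a check of the labels. Its mouse transcript (ENSMUSG00000039521.13, GRCm38 chromosome X, 7573644 to 7595245) stood at 218, 313, 217, 232 and 162 CPM with the FOXP3 vector, 42.7, 72.7 and 143 CPM with LNGFR alone and 704, 1581 and 1630.1 CPM in WT Treg. Values here and below are in the order F1, F2, F5, N2, N3, then G1, G2, G3, then E2, G4, L1. Every scurfy-origin code was below every WT Treg code, with a log2 difference (± SE) of -3.22 ± 0.36 (adjusted p = 0.000946; without E2 -3.52 ± 0.34, adjusted p = 0.000574). All 5 FOXP3 codes were above the 3 LNGFR codes. Foxp3 did not meet the rule because FOXP3 minus LNGFR was not below 1, at 1.40 (95% interval 0.47 to 2.34), adjusted p = 0.21. Whether reads of human FOXP3, which the vector supplies, were counted here was not tested. Flicr (ENSMUSG00000039545.16, GRCm38 chromosome X, 7573600 to 7581027), a noncoding RNA named after its values were seen, whose span covers the start of Foxp3 on the same annotated strand, was lower in both vector groups, at 25.6, 29.6, 18, 18.2 and 12.8 CPM with the FOXP3 vector, 5.38, 11.4 and 15.6 CPM with LNGFR alone and 48.7, 43.8 and 43.5 CPM in WT Treg. Its log2 difference was -1.57 ± 0.30 (adjusted p = 0.0222; without E2 -1.53 ± 0.33, adjusted p = 0.0479). It missed the threshold without G2 or L1 (adjusted p up to 0.148). Where the spans overlap, reads of Foxp3 and Flicr cannot be told apart.

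The 12 largest changes per direction were picked among genes whose codes did not overlap between the 2 sides. For these genes that separation, where given below, is a condition of the choice and no result. Among the genes named by rule that were higher in both vectors with and without E2, the largest difference was in a receptor that guides T cells into tissue. Cxcr6 (ENSMUSG00000048521.8, GRCm38 chromosome 9, 123806475 to 123811760), the receptor for Cxcl16 on effector and tissue-resident T cells, stood at 707, 378, 439.7, 492 and 667 CPM with the FOXP3 vector, 662, 948 and 1416 CPM with LNGFR alone and 21.1, 21 and 36.2 CPM in WT Treg. The lowest scurfy-origin code was above the highest WT Treg code by a wide margin, and the log2 difference was 4.79 ± 0.44 (adjusted p = 0.0004; without E2 4.68 ± 0.48, adjusted p = 0.000574). Between the vectors Cxcr6 differed by -0.91 (95% interval -1.64 to -0.18), with LNGFR higher, adjusted p = 0.349. Ccr1 (ENSMUSG00000025804.5, GRCm38 chromosome 9, 123962124 to 123968692), a receptor for inflammatory CC chemokines such as Ccl3 and Ccl5, stood at 82, 47.9, 46.6, 72.9 and 65 CPM with the FOXP3 vector, 27.9, 35.9 and 58.7 CPM with LNGFR alone and 6.58, 4.53 and 7.32 CPM in WT Treg. No Ccr1 value of the scurfy-origin codes fell to the WT Treg range, and the log2 difference was 3.06 ± 0.36 (adjusted p = 0.00125; without E2 3.09 ± 0.41, adjusted p = 0.00295). Ccr3 (ENSMUSG00000035448.9, GRCm38 chromosome 9, 124021972 to 124031689), the eotaxin receptor of eosinophils and some type 2 T cells, stood at 37.2, 37.6, 44.3, 74.1 and 7.08 CPM with the FOXP3 vector, 42, 42.1 and 120.1 CPM with LNGFR alone and 7.9, 1.94 and 4.39 CPM in WT Treg. FOXP3 code N3 was below WT Treg code E2, so the Ccr3 groups overlapped. The difference was 3.75 ± 0.75 (adjusted p = 0.0302; without E2 4.02 ± 0.85, adjusted p = 0.0415), and it missed the threshold without F1, F2, F5, G2 or L1 (adjusted p up to 0.0623).

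Other homing receptors went the opposite way. Ccr9 (ENSMUSG00000029530.16, GRCm38 chromosome 9, 123678439 to 123784330), the receptor for Ccl25 that directs lymphocytes to the small intestine and thymus, stood at 43.4, 47.1 and 45.4 CPM in WT Treg, against 20.5, 18, 5.5, 12.1 and 6.53 CPM in the FOXP3 codes and 5.04, 10.6 and 3.84 CPM in the LNGFR codes. The 3 WT Treg codes lay close together and above every scurfy-origin code, with a log2 difference of -2.33 ± 0.39 (adjusted p = 0.0108; without E2 -2.36 ± 0.43, adjusted p = 0.0189). Cxcr4 (ENSMUSG00000045382.6, GRCm38 chromosome 1, 128588199 to 128592293), the receptor for Cxcl12 that holds cells in bone marrow and lymphoid tissue, stood at 22.4, 46.6 and 41.2 CPM in WT Treg, against 10.2, 9.12, 9.6, 8.4 and 6.42 CPM in the FOXP3 codes and 17.1, 6.88 and 8.03 CPM in the LNGFR codes. Here too the groups did not overlap, and the difference was -1.97 ± 0.29 (adjusted p = 0.00606; without E2 -2.21 ± 0.28, adjusted p = 0.00261). Ccr9 and Cxcr4 were called whichever code was left out.

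Of 33 chemokine receptors and integrins tested, 4 were higher (Cxcr6, Ccr1, Ccr3 and Itgb3) and 4 lower (Ccr9, Cxcr4, Itga6 and Itgb8), against 0.466% and 0.912% of all genes tested. Without E2 the counts were 3 and 4. The list's median log2 difference was 0.11 with E2 and -0.11 without it, so its sign turned; over all genes tested the median was -0.03. Itga6, the alpha chain of a laminin-binding integrin, stood at 31.6, 74.9 and 84.6 CPM in WT Treg, against 23.6, 28.7, 27.4, 30.2 and 15.9 CPM in the FOXP3 codes and 9.08, 18.9 and 15.5 CPM in the LNGFR codes. The difference was -1.76 ± 0.30 (adjusted p = 0.0113; without E2 -2.06 ± 0.27, adjusted p = 0.00284), lost without G2, G3 or L1 (adjusted p up to 0.0764). Itgb3, the beta chain of the vitronectin receptor, was higher in all 8 scurfy-origin codes (33.5 to 101 CPM against 19.7 to 24.6), but its call did not last without E2 (1.40 ± 0.38, adjusted p = 0.127) or without any other code except N3 and G1 (adjusted p up to 0.162). Itgb8, which activates latent TGF-beta, is described with the genes that differed between vectors. Ccr2, Ccr10 and Itgav were not called. Codes of the 2 sides overlapped for Ccr2 and Ccr10 and not for Itgav. Their log2 differences were 1.23 ± 0.44, 1.21 ± 0.46 and -1.14 ± 0.27, with adjusted p = 0.158, 0.178 and 0.0539.

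**Figure D2:**
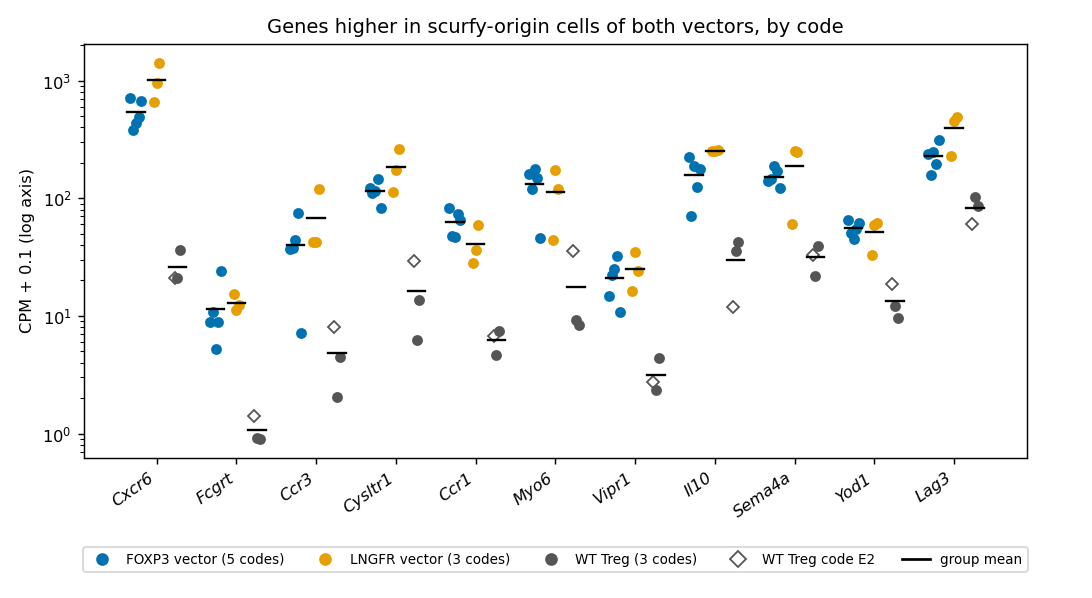
CPM per code (log axis, 0.1 added) of the 11 genes named by the rule that were higher in both vector groups with and without E2, in 5 codes of the FOXP3 group, 3 of LNGFR and 3 of WT Treg; bars are group means. Points of the scurfy-origin codes sit above the WT Treg points for every gene drawn except Ccr3, where FOXP3 code N3 (7.08 CPM) is below WT Treg code E2 (7.90 CPM). For all genes drawn but Ccr3 and Lag3 this separation was a condition of being named.

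Cxcr6, Ccr1, Ccr3 and Ccr9 are neighbours on chromosome 9, with opposite changes side by side. Ccr9 ends 22.1 kb before Cxcr6 begins, and Ccr1 and Ccr3 follow downstream. Other genes of the stretch were looked at after its calls were seen. Fyco1, within whose span Cxcr6 lies, did not pass the test (log2 difference 0.07 ± 0.23, adjusted p = 0.926). Lztfl1, which lies within the span of Ccr9 on the other strand, was at -0.88 ± 0.34 (adjusted p = 0.187). Xcr1, between Cxcr6 and Ccr1, was at 1.59 ± 0.76 (adjusted p = 0.297) with E2 and was called without it, at 3.03 ± 0.56 (adjusted p = 0.0189). Further on, Ccr2 was not called with or without E2. Where spans overlap and the strand setting is unknown, part of the reads could belong to either gene. 

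The promoters of the 3 higher receptors and of the lower one are shown because these neighbours moved apart. Each run is 300 bases of RefSeq GRCm38.p6, from 250 before to 50 after the annotated start, read 5′ to 3′ along the gene. They lie at chr9:123806227-123806526 (plus strand), chr9:123968643-123968942 (minus), chr9:124021721-124022020 (plus) and chr9:123766961-123767260 (plus). For Ccr9 the RefSeq start lies inside the GENCODE span given above, which begins at 123678439, so the 2 annotations differ there. Capitals mark matches, on either strand, to TGTGGT (RUNX), TGANTCA (AP-1, the same pattern on both strands), CACCC (KLF) or TTC and GAA with 3 bases between (STAT); no matches overlap in these 4 runs.
Cxcr6: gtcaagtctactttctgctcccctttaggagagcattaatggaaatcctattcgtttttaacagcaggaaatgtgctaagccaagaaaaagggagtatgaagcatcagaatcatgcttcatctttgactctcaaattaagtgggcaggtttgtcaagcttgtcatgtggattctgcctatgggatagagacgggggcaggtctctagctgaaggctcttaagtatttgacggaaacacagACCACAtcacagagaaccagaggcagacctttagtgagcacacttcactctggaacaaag
Ccr1: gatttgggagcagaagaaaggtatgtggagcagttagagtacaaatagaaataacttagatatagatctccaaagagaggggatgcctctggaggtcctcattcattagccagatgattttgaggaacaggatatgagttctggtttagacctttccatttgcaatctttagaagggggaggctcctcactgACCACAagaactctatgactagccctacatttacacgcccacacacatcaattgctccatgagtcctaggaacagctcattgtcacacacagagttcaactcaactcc
Ccr3: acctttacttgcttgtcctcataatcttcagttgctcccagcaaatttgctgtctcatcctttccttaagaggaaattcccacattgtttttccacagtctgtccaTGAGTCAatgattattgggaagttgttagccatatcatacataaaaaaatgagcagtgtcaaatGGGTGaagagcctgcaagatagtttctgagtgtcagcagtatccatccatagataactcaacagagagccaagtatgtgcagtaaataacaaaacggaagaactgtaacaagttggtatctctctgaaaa
Ccr9: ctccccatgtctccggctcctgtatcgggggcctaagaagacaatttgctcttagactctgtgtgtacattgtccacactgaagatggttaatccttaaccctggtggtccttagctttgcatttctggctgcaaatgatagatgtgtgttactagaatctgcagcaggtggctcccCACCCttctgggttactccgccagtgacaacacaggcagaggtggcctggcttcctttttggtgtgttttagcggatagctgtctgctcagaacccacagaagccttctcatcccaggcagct
Cxcr6 and Ccr1 each hold 1 RUNX match, on the reverse strand, at bases 241 to 246 and 193 to 198 of the run. Ccr3 holds an AP-1 match at bases 107 to 113 and a reverse KLF match at bases 171 to 175. Ccr9 holds a forward KLF match at bases 178 to 182. No STAT match is in these windows. Of the 32851 promoters in the table, 16.8% hold a RUNX match, 7.81% AP-1, 57.5% KLF and 8.30% STAT; of the 13516 promoters of tested genes, 13.2%, 5.33%, 62.4% and 6.98% do. For the 28 higher genes of both fits, 17 matched a promoter entry (23 promoters), with shares of 26.1%, 8.70%, 60.9% and 13% in the same order. For the 42 lower genes, 25 matched (36 promoters), with 11.1%, 2.78%, 69.4% and 5.56%. A match is a string of letters and no evidence of binding.

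Further receptors were set side by side after their values were seen, 3 for lipid mediators and 1 for a neuropeptide; no list of such genes was counted. Cysltr1 (ENSMUSG00000052821.3, GRCm38 chromosome X, 106574346 to 106603679), a receptor for cysteinyl leukotrienes, stood at 123, 111, 115, 144 and 83 CPM with the FOXP3 vector, 112, 174 and 264 CPM with LNGFR alone and 29, 6.15 and 13.6 CPM in WT Treg. The groups did not overlap, and the log2 difference was 3.33 ± 0.48 (adjusted p = 0.00493; without E2 3.87 ± 0.47, adjusted p = 0.00183). Gm5127 overlaps Cysltr1 and was higher too (3.55 ± 0.61, adjusted p = 0.0118), so their reads cannot be told apart. Vipr1 (ENSMUSG00000032528.5, GRCm38 chromosome 9, 121642716 to 121672954), a receptor for vasoactive intestinal peptide, stood at 14.7, 22.3, 25.1, 32.3 and 10.7 CPM with the FOXP3 vector, 16.1, 35.1 and 23.7 CPM with LNGFR alone and 2.63, 2.26 and 4.26 CPM in WT Treg. All 8 scurfy-origin codes were above all 3 WT Treg codes, with a difference of 2.84 ± 0.45 (adjusted p = 0.0088; without E2 2.79 ± 0.51, adjusted p = 0.0189). Ptgdr2, the prostaglandin D2 receptor known as CRTH2 and a marker of type 2 T cells, had 184 counts over 8 scurfy-origin codes and 3 counts over WT Treg. The ratio of pooled CPM was 13.7 (95% exact interval 4.6 to 66.8, counting error only). Its fitted call had adjusted p = 0.0423, lost when any of F1, F2, F5, N2, G2, G3, G4 or L1 was left out (up to 0.130). Ltb4r1, a receptor for leukotriene B4, was higher in both groups but further apart, at 50.8 to 181 CPM in the FOXP3 codes, 309 to 696 CPM in LNGFR and 2.63 to 13.9 CPM in WT Treg. The LNGFR codes were above all FOXP3 codes there, and the difference from WT Treg was 4.6 ± 0.58 (adjusted p = 0.00188; without E2 4.33 ± 0.59, adjusted p = 0.00344).

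Il10 and Lag3, which take part in suppression, were among the higher genes, while other molecules of suppression were not. Of 28 genes known to be high in Treg, 1 was called higher, Il10, and 8 lower, Lrrc32 and Itgb8 among them. Over all genes tested 0.466% were higher and 0.912% lower. Il10 (ENSMUSG00000016529.5, GRCm38 chromosome 1, 131019845 to 131024974), an anti-inflammatory cytokine made by Treg and by activated effector T cells, stood at 225, 70.0, 188, 124 and 176 CPM with the FOXP3 vector, 252, 252 and 256 CPM with LNGFR alone and 11.8, 35.4 and 42 CPM in WT Treg. The 3 LNGFR codes were almost equal and above all FOXP3 codes, and all 8 were above WT Treg. The log2 difference was 2.68 ± 0.44 (adjusted p = 0.00997; without E2 2.36 ± 0.41, adjusted p = 0.015), and it missed the threshold without G2 (adjusted p = 0.0596). Lag3, an inhibitory receptor that binds MHC class II, stood at 238, 156, 248, 195 and 312 CPM with the FOXP3 vector, 231, 455 and 492 CPM with LNGFR alone and 60.5, 102 and 85.8 CPM in WT Treg. Its groups did not overlap, with a difference of 1.85 ± 0.35 (adjusted p = 0.0198; without E2 1.68 ± 0.37, adjusted p = 0.0498), lost without G2, G3 or L1 (adjusted p up to 0.145). Of 20 checkpoint and costimulation genes, Lag3 was higher and Tnfrsf9 lower, against 0.466% and 0.912% of all genes tested. The list median was -0.06 (-0.13 without E2).

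Sema4a, a semaphorin that acts as a costimulatory ligand for T cells, stood at 139, 145, 186, 170.5 and 123 CPM with the FOXP3 vector, 59.9, 253 and 245 CPM with LNGFR alone and 32.9, 21.8 and 39 CPM in WT Treg. WT Treg codes were all below the lowest scurfy-origin code, and the difference was 2.44 ± 0.44 (adjusted p = 0.0158; without E2 2.47 ± 0.52, adjusted p = 0.0391), lost without G2 (adjusted p = 0.0849). Myo6, an actin-based motor of vesicle traffic, stood at 161, 120.3, 178, 149.5 and 45.7 CPM with the FOXP3 vector, 43.7, 174 and 120.1 CPM with LNGFR alone and 35.5, 9.06 and 8.26 CPM in WT Treg. Codes N3 and G1 were the scurfy-origin codes nearest to WT Treg code E2, with no overlap, and the difference was 3.01 ± 0.64 (adjusted p = 0.0425; without E2 3.81 ± 0.65, adjusted p = 0.0132), lost without F1, F2, F5, N2, G2, G3 or L1 (adjusted p up to 0.0944). Yod1, a deubiquitinase of the endoplasmic reticulum protein disposal route, stood at 65.4, 51, 44.6, 54.6 and 61.7 CPM with the FOXP3 vector, 32.6, 59.5 and 61.7 CPM with LNGFR alone and 18.4, 12.1 and 9.46 CPM in WT Treg. Here the groups did not overlap, the difference was 2.10 ± 0.31 (adjusted p = 0.00571; without E2 2.3 ± 0.33, adjusted p = 0.0041), and the vector groups were 0.11 (95% interval -0.49 to 0.70) apart. Nfkb1, the p105 and p50 subunit of NF-kappaB and named here after its values were seen, ran from 344 to 632 CPM in the 8 scurfy-origin codes and from 146 to 191 CPM in WT Treg. Its difference was 1.51 ± 0.29 (adjusted p = 0.0232; without E2 1.41 ± 0.30, adjusted p = 0.0433), lost without F1, F5, N2, G2, G3 or L1 (adjusted p up to 0.15).

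Fcgrt, the neonatal Fc receptor that recycles IgG, stood at 8.81, 10.6, 5.18, 8.72 and 23.7 CPM with the FOXP3 vector, 15.1, 11 and 12.2 CPM with LNGFR alone and 1.32, 0.809 and 0.799 CPM in WT Treg. Code N3, which was highest in B-cell genes, was also highest in Fcgrt, and all 8 scurfy-origin codes were above WT Treg. The difference was 3.79 ± 0.58 (adjusted p = 0.00613; without E2 3.87 ± 0.64, adjusted p = 0.0109), and it was called whichever code was left out. Pltp, a phospholipid transfer protein of plasma lipoproteins, stood at 20.7, 27.3, 32.8, 33.1 and 155 CPM with the FOXP3 vector, 50.8, 25.6 and 34.9 CPM with LNGFR alone and 1.32, 2.26 and 4.13 CPM in WT Treg. N3 again was far above the other FOXP3 codes. The Pltp difference of 3.89 ± 0.76 (adjusted p = 0.0249) was lost without E2 (3.77 ± 0.86, adjusted p = 0.0614) or G2 (adjusted p = 0.0564). Lgals3 and Pdlim4, a galectin and an actin-associated adaptor, were likewise called only with E2, at 2.85 ± 0.56 and 2.40 ± 0.49 (without E2 2.59 ± 0.62 and 2.12 ± 0.48, adjusted p = 0.0737 and 0.0575). Lgals3 was also lost without G2 or G3, and Pdlim4 without F1, F2, F5, N2, G2 or G3 (adjusted p up to 0.134).

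Among the lower genes, Ctse (ENSMUSG00000004552.16, GRCm38 chromosome 1, 131638306 to 131675505), an aspartic protease of endosomes, stood at 199, 438 and 463 CPM in WT Treg, against 35.2, 49.1, 44.2, 52.8 and 51.1 CPM in the FOXP3 codes and 36.3, 88.7 and 50.7 CPM in the LNGFR codes. WT Treg codes G4 and L1 were close to each other and E2 was lower, yet E2 was above every scurfy-origin code. The log2 difference was -2.82 ± 0.31 (adjusted p = 0.00092; without E2 -3.11 ± 0.27, adjusted p = 0.000574), and the vector groups were -0.34 (95% interval -1.08 to 0.41) apart. Cpq, a carboxypeptidase of secretory and lysosomal compartments, was named after its values were seen. It stood at 54, 50.0 and 39.7 CPM in WT Treg, against 11.2, 8.1, 9.81, 7.37 and 7.73 CPM in the FOXP3 codes and 6.05, 8.96 and 8.75 CPM in the LNGFR codes. All 8 scurfy-origin codes were in a narrow band, and the difference was -2.50 ± 0.22 (adjusted p = 0.0004; without E2 -2.42 ± 0.23, adjusted p = 0.000574), with 0.14 (95% interval -0.40 to 0.68) between the vectors, an interval wholly within 1. Cpe, a carboxypeptidase that trims prohormones and was also named afterwards, was at 2.28 to 6.69 CPM in the scurfy-origin codes and 12 to 26.3 CPM in WT Treg, a difference of -2.25 ± 0.36 (adjusted p = 0.00882; without E2 -1.88 ± 0.34, adjusted p = 0.0163). 

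Slc15a2, a transporter of small peptides, stood at 77.7, 17.1 and 21.2 CPM in WT Treg, against 3.76, 1.86, 3.45, 1.76 and 11.1 CPM in the FOXP3 codes and 3.7, 2.88 and 2.4 CPM in the LNGFR codes. E2 was far above G4 and L1, and all 3 were above the scurfy-origin codes. The difference was -3.35 ± 0.56 (adjusted p = 0.0108; without E2 -2.42 ± 0.51, adjusted p = 0.0414). Atp6v0d2, a subunit of the proton pump that acidifies lysosomes, stood at 19.7, 7.28 and 8.39 CPM in WT Treg, against 0.705, 1.02, 2.26, 0.415 and 0.218 CPM in the FOXP3 codes and 1.34, 0.16 and 0.479 CPM in the LNGFR codes. Its groups did not overlap and the difference was -3.91 ± 0.69 (adjusted p = 0.0142; without E2 -3.41 ± 0.66, adjusted p = 0.0237), lost without G2 or G3 (adjusted p up to 0.0616). It rested on 53 counts in the scurfy-origin codes and 123 in WT Treg.

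Ppm1l and Ift80, 312 kb apart on chromosome 3, were both lower. They were set side by side because both met the rule, and any genes between them were not looked at. Ppm1l (ENSMUSG00000027784.10, GRCm38 chromosome 3, 69316861 to 69560802), a membrane-bound protein phosphatase, stood at 18.4, 60.5 and 69.1 CPM in WT Treg, against 2.7, 9.59, 5.61, 3.63 and 9.47 CPM in the FOXP3 codes and 6.39, 5.12 and 5.51 CPM in the LNGFR codes. E2 was nearest to the scurfy-origin codes but above all of them, and the difference was -3.10 ± 0.40 (adjusted p = 0.00207; without E2 -3.46 ± 0.35, adjusted p = 0.000574). Ift80 (ENSMUSG00000027778.15, GRCm38 chromosome 3, 68892499 to 69004570), a carrier protein of cilium transport named after its values were seen, stood at 71.1, 122 and 92.6 CPM in WT Treg, against 17.6, 38.1, 16.4, 13.3 and 16.3 CPM in the FOXP3 codes and 11.1, 17.4 and 15.2 CPM in the LNGFR codes. The groups did not overlap, with a difference of -2.47 ± 0.30 (adjusted p = 0.00166; without E2 -2.63 ± 0.32, adjusted p = 0.00183). Between the vectors the differences were 0.14 (95% interval -0.88 to 1.16) for Ppm1l and 0.47 (95% interval -0.30 to 1.23) for Ift80.

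Lower genes around Rhoh on chromosome 5 were likewise picked afterwards, only from genes that met the rule. Rhoh, a GTP-binding protein that lacks GTPase activity and is needed for T cell receptor signalling, ran from 162 to 278 CPM in scurfy-origin codes and stood at 411, 719 and 664 CPM in WT Treg. Its difference was -1.50 ± 0.24 (adjusted p = 0.00882; without E2 -1.71 ± 0.21, adjusted p = 0.00183), lost without G2, G3, G4 or L1 (adjusted p up to 0.0944). Gm42646, a gene model 2.98 kb upstream, had 17 counts in the 8 scurfy-origin codes and 173 in WT Treg, a difference of -5.62 ± 0.81 (adjusted p = 0.00493; without E2 -5.61 ± 0.74, adjusted p = 0.00295). Gm43769, 14.9 kb downstream, was at 1.14 to 3.54 CPM against 14.5, 23.6 and 31.6 CPM, a difference of -3.36 ± 0.40 (adjusted p = 0.00125; without E2 -3.60 ± 0.38, adjusted p = 0.000788). Neither gene model was lost when a code was left out.

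**Figure D3:**
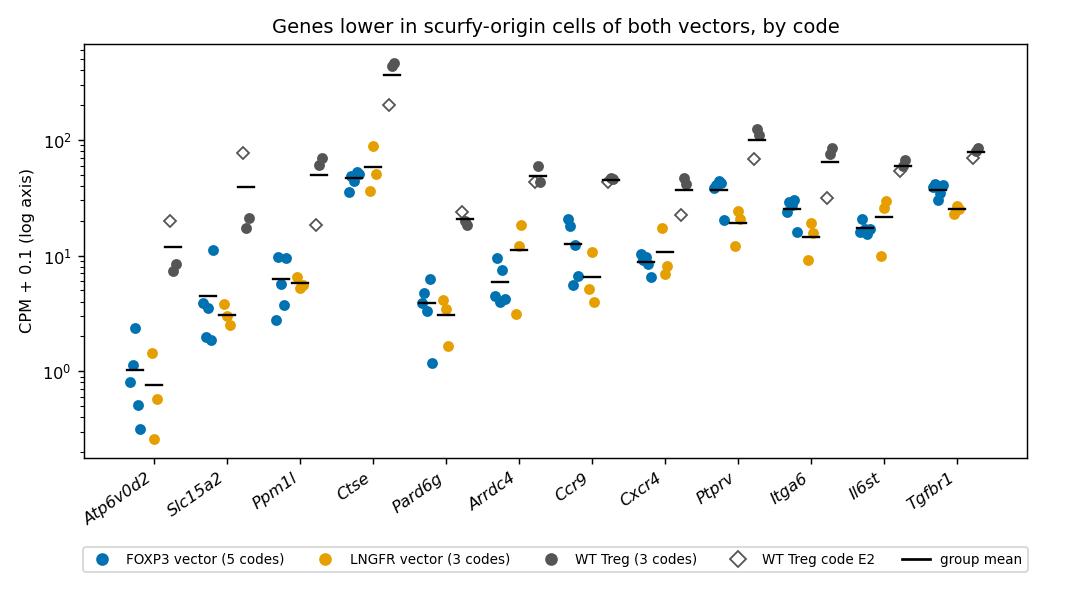
CPM per code (log axis, 0.1 added) of the 12 genes named by the rule that were lower in both vector groups with and without E2, with groups and bars as in the plot of higher genes. WT Treg points sit above all scurfy-origin points for each of the 12 genes. For Atp6v0d2, Slc15a2, Ppm1l, Ctse, Pard6g and Arrdc4 this separation was a condition of being named. E2, drawn open, is the highest WT Treg code for Slc15a2, Atp6v0d2 and Pard6g and the lowest for Ctse, Ppm1l, Ccr9, Cxcr4, Ptprv, Itga6, Il6st and Tgfbr1.

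Il6st, the gp130 chain shared by receptors of the IL-6 family, stood at 54, 59.2 and 66.6 CPM in WT Treg, against 16, 20.7, 16.9, 15.4 and 16.8 CPM in the FOXP3 codes and 9.75, 25.6 and 29.6 CPM in the LNGFR codes. WT Treg codes were all above the others, with a difference of -1.63 ± 0.27 (adjusted p = 0.00965; without E2 -1.70 ± 0.29, adjusted p = 0.014). Tgfbr1, the signalling chain of the TGF-beta receptor, stood at 69.8, 80.4 and 84.4 CPM in WT Treg, against 38.9, 41.2, 30.2, 34.8 and 40.4 CPM in the FOXP3 codes and 22.9, 26.9 and 25.1 CPM in the LNGFR codes. The difference was -1.37 ± 0.19 (adjusted p = 0.00376; without E2 -1.44 ± 0.19, adjusted p = 0.00314), with 0.57 (95% interval 0.11 to 1.03) between the vectors. Both missed the threshold without G2 or L1, with adjusted p up to 0.0944 for Il6st and 0.0596 for Tgfbr1. Of 28 cytokine receptor genes tested, Il6st and Tgfbr1 were lower and Tgfbr3 higher, against 0.912% lower and 0.466% higher of all genes tested. The list median was -0.14 (-0.26 without E2). Tgfbr3, a coreceptor that presents TGF-beta, ran from 10.9 to 32.8 CPM in FOXP3 codes, 32.3 to 57.3 CPM in LNGFR codes and 3.33 to 6.58 CPM in WT Treg. The difference was 2.79 ± 0.44 (adjusted p = 0.00755; without E2 2.96 ± 0.48, adjusted p = 0.0102). It did not meet the rule of alike vectors, with FOXP3 minus LNGFR at -1.17 (95% interval -1.92 to -0.42), adjusted p = 0.192. Il2ra, the IL-2 receptor alpha chain used to sort the Treg donors (CD25), was at -0.80 ± 0.31 (adjusted p = 0.196) with E2 and was called lower without it, at -1.15 ± 0.23, adjusted p = 0.0322. It met the rule in neither fit. With E2 it was at -0.23 for FOXP3 and -1.38 for LNGFR against WT Treg. FOXP3 minus LNGFR was 1.15 (95% interval 0.37 to 1.93), adjusted p = 0.221.

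Arrdc4, an arrestin-like protein induced by glucose, stood at 43.4, 59.8 and 43 CPM in WT Treg, against 4.34, 9.4, 3.88, 7.37 and 4.14 CPM in the FOXP3 codes and 3.03, 12 and 18.3 CPM in the LNGFR codes. The difference was -2.58 ± 0.39 (adjusted p = 0.00613; without E2 -2.65 ± 0.43, adjusted p = 0.0102), lost without G2 (adjusted p = 0.0564), and the vectors were -0.97 (95% interval -1.92 to -0.01) apart. Pard6g, a cell polarity adaptor, stood at 23.7, 19.7 and 18.2 CPM in WT Treg, against 3.76, 4.66, 3.23, 6.12 and 1.09 CPM in the FOXP3 codes and 4.03, 3.36 and 1.56 CPM in the LNGFR codes. No code overlapped and the difference was -2.61 ± 0.42 (adjusted p = 0.00882; without E2 -2.53 ± 0.44, adjusted p = 0.0149). Tbc1d30, a GTPase-activating protein of Rab proteins named after its values were seen, was at 8.07 to 21.4 CPM against 52.6, 60.3 and 63.5 CPM in WT Treg, a difference of -2.02 ± 0.22 (adjusted p = 0.00092; without E2 -2.09 ± 0.24, adjusted p = 0.00142).

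The lists of cell state give the frame for these genes. Of 28 genes known to be high in Treg, 8 were lower in the scurfy-origin cells and 1, Il10, was higher, against 0.912% and 0.466% of all genes tested. The list's median was -0.44 (-0.71 without E2), at -0.14 for FOXP3 and -0.75 for LNGFR against WT Treg. Only Il10 and Plagl1 of the called members met the rule of alike vectors. Plagl1, a zinc-finger factor, was called through E2 (29.0 CPM, against 5.34 and 6.26 in G4 and L1) and not without it (-2.21 ± 0.52, adjusted p = 0.0725), nor without G2 or G3 (up to 0.0849). Of 12 genes low in Treg, 3 were higher (Tnfsf8, Id2 and Cd40lg) and 0 lower, with a median of 0.51 (0.75 without E2). Without E2 these counts were 8 lower and 1 higher, and 5 higher and 0 lower. 

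Other lists held few calls. All 19 effector memory and cytoskeleton genes had values above 0 in the fit with E2, and 3 were called higher (Lgals3, Id2 and Ly6c2). Their median was 0.69 (0.38 without E2), against -0.03 (-0.0047 without E2) over all genes tested. The share of all tested genes above 0 was not counted, nor was the list's number above 0 without E2. Of the 3 calls, Lgals3 was lost without E2. Id2 and Ly6c2 had the vector groups more than 2-fold apart, with FOXP3 minus LNGFR at -1.29 and -3.95. Of 15 naive and central memory genes, only Il6st was called. Il4 was the only call among 15 type 2 genes, and Ifng among 19 type 1 and cytotoxic genes, the latter at 3.29 ± 0.68 (adjusted p = 0.0358) and not called without E2 (adjusted p = 0.0638) or without F1, N2, G2 or L1 (up to 0.0944). None of the 6 type 17, 11 follicular helper, 21 T cell receptor signalling, or 25 cell cycle genes passed the test. Of 12 TNF ligand genes 2 were higher (Tnfsf8 and Cd40lg), and of 25 activation reporters 1, Ier3. Among markers of other cells, 0 of 6 plasma cell, 8 myeloid, 4 CD8 and NK, 3 stroma and 5 sex-linked genes were called, as were 0 of the 10 T-cell genes. Other list members were called without E2. Themis, a T cell receptor signalling adaptor, was at 2.75 ± 0.38 (adjusted p = 0.00344) and met the rule of alike vectors. Pparg of the type 2 list, Anxa1 of the effector memory list and Pde3b of the genes low in Treg were higher, and Tnfsf11 of the TNF ligands was lower (adjusted p = 0.0189, 0.0188, 0.00911 and 0.0403). Without E2 the myeloid gene Lyz2 and the CD8 gene Cd8b1 were lower, and Xcr1 was higher. By edgeR's test, 1.38% of all tested genes were called. These lists, like the rest, were chosen with earlier results of these data known.

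Genes called on the same side with the vector groups 2-fold or more apart show what the rule left out. Il4, the signature type 2 cytokine, stood at 45, 29.4, 27.8, 23.2 and 44.6 CPM with the FOXP3 vector, 119, 92.8 and 127 CPM with LNGFR alone and 10.5, 4.37 and 3.2 CPM in WT Treg. The FOXP3 codes lay between the other groups without overlap, with a difference of 3.68 ± 0.42 (adjusted p = 0.000946; without E2 4.03 ± 0.39, adjusted p = 0.000574) and FOXP3 minus LNGFR at -1.73 (95% interval -2.41 to -1.05). Tnfsf8, the CD30 ligand, stood at 67.4, 73.3, 65.3, 52.2 and 89 CPM with the FOXP3 vector, 269.7, 342 and 279.7 CPM with LNGFR alone and 23.7, 16.2 and 18.8 CPM in WT Treg. It had the same order, at 2.91 ± 0.29 (adjusted p = 0.000522; without E2 3.03 ± 0.31, adjusted p = 0.000574) for the comparison and -2.10 (95% interval -2.63 to -1.56) between the vectors. Gpr83, an orphan receptor of Treg, stood at 96.1, 265 and 204 CPM in WT Treg, against 78.2, 45.8, 33.6, 29.9 and 53.6 CPM in the FOXP3 codes and 13.8, 11.5 and 13.9 CPM in the LNGFR codes. FOXP3 codes again lay between the other 2 groups, at -2.92 ± 0.32 (adjusted p = 0.00092; without E2 -3.23 ± 0.29, adjusted p = 0.000574). Itgb8 fell from 39.9 to 55.3 CPM in WT Treg to 9.25 to 20.9 CPM in FOXP3 and 3.20 to 5.38 CPM in LNGFR codes, and Lrrc32, the docking protein for latent TGF-beta at the Treg surface, from 203 to 454 CPM to 76.1 to 209 CPM and 16.1 to 39.9 CPM. FOXP3 code F2 overlapped WT Treg code E2 for Lrrc32 alone of these. Their differences were -2.54 ± 0.28 (adjusted p = 0.00092; without E2 -2.40 ± 0.29, adjusted p = 0.00183) and -2.48 ± 0.36 (adjusted p = 0.00493; without E2 -2.74 ± 0.35, adjusted p = 0.00261). Tnfrsf9, an activation receptor known as 4-1BB, was at -0.61 for FOXP3 and -3.84 for LNGFR against WT Treg, and its call (-2.23 ± 0.41, adjusted p = 0.0196) was lost without G2, G3 or L1 (up to 0.143).

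WT Treg carry a different allele of Ptprc, and a donor strain with such an allele can also carry linked sequence, so calls were counted by distance from that gene. Ptprc itself (ENSMUSG00000026395.16, GRCm38 chromosome 1, 138062861 to 138175708), which encodes CD45, was not called (0.09 ± 0.32, adjusted p = 0.935). Within 10 Mb of it 6 of 121 tested genes were called (4.96%), all 6 alike in both vectors, against 1.37% of the 15151 tested genes with a position. Within 5 Mb it was 1 of 66 (1.52%), within 25 Mb 7 of 257 (2.72%), and on chromosome 1 farther out, 10 of 748 (1.34%). Without E2 7 of the genes within 10 Mb were called (5.79%). The 6 were Ctse, Cxcr4, Ptprv and Gm37163, which were lower, and Il10 and Yod1, which were higher. Ptprv, a receptor phosphatase gene annotated as a processed transcript in mouse, stood at 68.4, 123 and 109 CPM in WT Treg, against 38, 40.8, 44.1, 42.3 and 20.4 CPM in the FOXP3 codes and 12.1, 24.2 and 20.6 CPM in the LNGFR codes. Its groups did not overlap, with a difference of -1.93 ± 0.28 (adjusted p = 0.00493; without E2 -2.13 ± 0.28, adjusted p = 0.00295). Gm37163 was at 46.1 CPM in E2 and 0.64 to 1.34 CPM in every other code, and its call did not last without E2 (adjusted p = 0.902) or without G1 or G2 (0.0575 and 0.153). Whether linked sequence has a part in these calls was not tested.

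**Figure D4:**
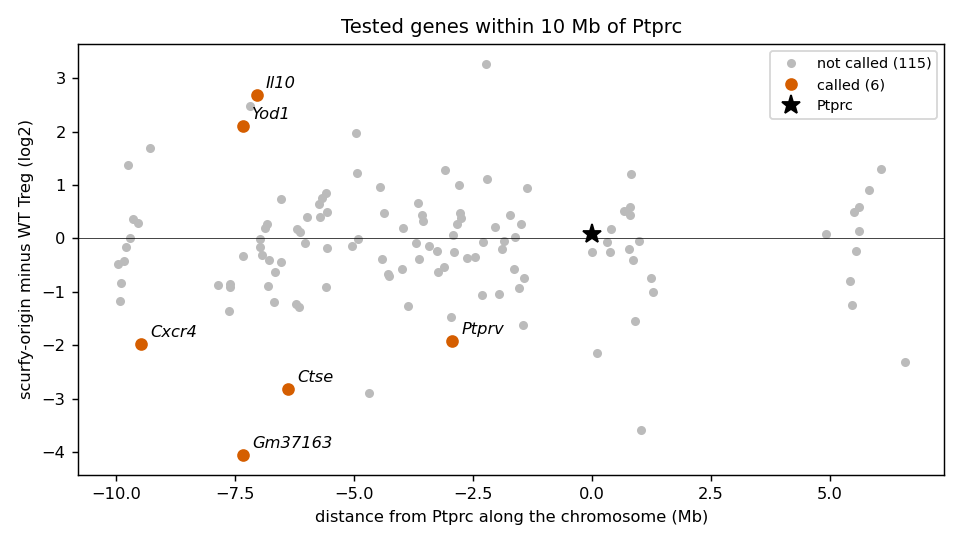
The 121 tested genes within 10 Mb of Ptprc, with the distance of each from Ptprc in Mb on the x axis and the log2 difference, scurfy-origin minus WT Treg, on the y axis. The 6 called genes, labelled, all lie on the side of lower coordinates, where most of the 121 tested genes lie too. Ptprc, the star, is at 0.09.

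The lower genes that met the rule only with E2 are described apart. Of these 50, 9 were vomeronasal or olfactory receptors, 15 were gene models, and 33 had a value in E2 at least 5 times those in both G4 and L1. Vmn2r8, a vomeronasal receptor, stood at 39.5, 1.29 and 2.13 CPM in WT Treg, against 0, 0, 0.108, 0.83 and 0.218 CPM in the FOXP3 codes and 1.01, 0 and 0.24 CPM in the LNGFR codes. Outside E2 it was near 0, and its difference of -5.47 ± 1.23 (adjusted p = 0.0495) was lost without E2 (-2.54 ± 1.19, adjusted p = 0.513) and when any of F1, F2, F5, N3, G1, G2 or G3 was left out. Dsel, an enzyme of dermatan sulfate synthesis, was at 97.4 CPM in E2 against 6.79 and 8.79 CPM in G4 and L1 and 2.02 to 6.08 CPM in the scurfy-origin codes. Its difference went from -2.89 to -0.76 without E2, and the call was also lost without any of the other codes except G4 and L1. Ifi44 was the 1 interferon-stimulated gene called of 28, against 0.912% of all genes tested that were called lower. It was at 30.3, 7.44 and 1.46 CPM in E2, G4 and L1, and its adjusted p rose from 0.0488 to 0.208 without E2. The call was lost too without F1, F5, N2, G2 or G3 (adjusted p up to 0.152). Of the 42 lower genes of both fits, 0 were receptors of those families and 0 had such an excess in E2. The 42 were picked by meeting the rule without E2 and the 50 by not meeting it. This contrast is thus in part built in. Among the 11 higher genes met only with E2, 3 were gene models and all 11 had groups that did not overlap.

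**Figure D5:**
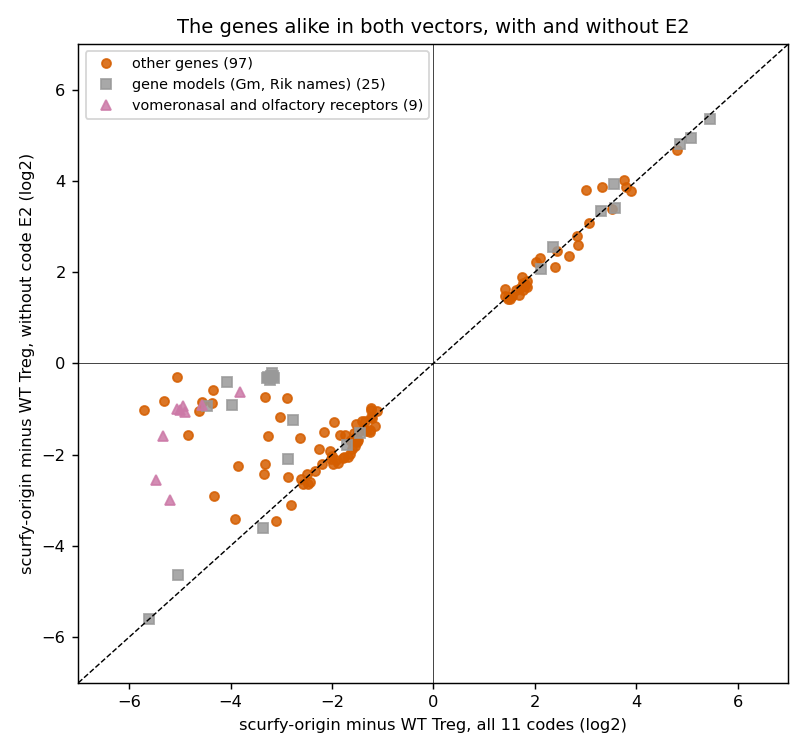
The 131 genes that met the rule, with the log2 difference from all 11 codes on the x axis and from the 10 codes without E2 on the y axis; the dashed line marks equal values. The higher genes lie close to the line, while the 9 vomeronasal and olfactory receptors and many gene models among the lower genes move towards 0 without E2.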

How the data were processed

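RNA of sorted mouse lymph node CD4+ T cells was read by Smart-seq (oligo(dT) priming, Tn5 fragmentation, 18 PCR cycles, paired 38-base reads), per the labels' protocols. The deposited table holds raw counts per gene symbol, not normalized by the authors as far as the values show. The submitters' processing notes name STAR 2.7.3a, featureCounts and Subread 2.0.0 with mm10 (GRCm38). For the annotation, the strand setting and multiply mapped reads the sources used here give nothing. Without molecular identifiers, PCR copies count as reads, and the exact interval of a count ratio covers counting error only. Intervals between the vector groups come from the fit over codes. All columns were mapped by title (0 left out).

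Counts of the 2 libraries of a code were summed, since the labels do not make them separate animals. Across genes their log2 CPM correlated at 0.967 to 0.982, except in G1 (0.472) and E2 (0.826). Genes were tested with edgeR 4.0.16 in R 4.3.3 (TMM, filterByExpr, robust quasi-likelihood fit, all 11 codes in 1 fit, contrast of the mean of FOXP3 and LNGFR minus WT Treg), with Benjamini-Hochberg adjustment over 15462 genes. The SE of a log2 difference is its size divided by the root of F. The common biological coefficient of variation was 0.491. The procedure was tested on simulated data. Positions are those of GENCODE M21 (GRCm38), matched by symbol for 15151 tested genes.

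Members, the 23 gene lists and the thresholds were chosen with earlier results of these data known. Named genes were Foxp3 and Ptprc, the 12 largest changes per direction among genes that met the rule with at least 10 CPM on the higher side, no overlap of codes and no gene-model or receptor-segment name, all list members that met it, up to 4 other members per list by smallest p, called genes within 10 Mb of Ptprc, and up to 6 genes per direction with the vectors apart. Others are said to be named afterwards. Alternatives were leaving out each code or the weak libraries, RLE scaling, no filter, DESeq2 1.42.0, limma 3.58.1 with quality weights, and other limits of the rule.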

Additional observations from a re-analysis of the deposited data

Results flagged for a closer look

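In 7 of the 78 genes examined for 1 FOXP3 code far from the other 4, a code stood apart by Dixon's test at the 95% level, which chance meets in about 1 group in 20. In 5 of the 7 the code was N3, the code with the highest sum of B-cell genes (5966 CPM). N3 had 155 CPM of Pltp against 20.7 to 33.1 CPM in the others, 11.1 CPM of Slc15a2 against 1.76 to 3.76, 75.5 CPM of Bach2 against 8.34 to 13.4, 2.83 CPM of Dsel against 5.4 to 6.02 and 20.4 CPM of Ptprv against 38.0 to 44.1. Code F2 had 255 CPM of Ttn against 99.6 to 144, and N2 had 0.83 CPM of Vmn2r8 against 0 to 0.218. The part of B-cell RNA in these values was not tested.

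Among the genes examined, 12 differed between the vector groups themselves in the same fit, so their difference from WT Treg was not the same with and without FOXP3. Some of them were named because the vector groups were 2-fold or more apart, so this count is in part built in. Of the 213 genes called for the comparison with WT Treg, 24 also passed for FOXP3 minus LNGFR. The FOXP3 minus LNGFR log2 difference was -10.33 for Il5 (adjusted p = 3.91e-05), which had 4 counts over the FOXP3 codes, 2671 over LNGFR and 1 over WT Treg, so that its size depends on few counts. It was -6.36 for Ccl24, with 8, 246 and 1 counts. It was -3.95 for Ly6c2, -3.87 for Prxl2a, -2.10 for Tnfsf8, -1.73 for Il4, -1.50 for Stc2, -1.35 for Cd40lg and -1.29 for Id2. FOXP3 was the higher group for Tnfrsf9 (3.23), Ighj1 (2.96) and Sh3bp4 (2.45).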

How the results depend on the processing

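No direction reversed among the 55 named genes that were called, under any alternative run. Among named genes not called some did: Ptprc was at 0.09 with E2 and -0.21 without it. The counts moved more. Calls higher and lower (72 and 141), genes alike in both vectors (39 and 92) and those with the interval within 1 (25) ranged over 35 to 108, 24 to 1150, 14 to 52, 13 to 587 and 2 to 29 when 1 code was left out. The most lower calls (1150, and 587 alike) came without WT Treg code G4, which leaves E2 as 1 of 2, and the fewest without LNGFR code G2. Lower calls fell by over 1.5 times without F1, F2, F5, N2, G2 or G3 and rose by that much without G4 or L1 (308). The median over all genes (-0.03) was -0.31 without a filter and -0.16 without G2 or G3. Without codes E2, G1 and N3 there were 408 and 603 calls, 111 higher genes alike and 73 with the interval within 1. Without a filter on low counts there were 371 and 3664 calls, 187 and 1735 alike and 375 by interval. DESeq2 gave 292 and 889 calls with 110 and 339 alike, and limma with quality weights 337 and 781 with 90 and 230. With the 8 scurfy-origin codes as 1 group there were 39 and 70 calls. Without the 3 weak libraries 59 lower genes were alike, and 60 when the vectors had to be within 1.5-fold. Requiring each vector group to be called on its own left 14 higher and 8 lower. Why the counts differ was not tested. Of 55 named genes called, 20 stayed called under every alternative. Intervals between vectors were not computed with DESeq2 or limma. No paired analysis was possible because the groups share no code. The meaning of a code's letter is not stated, and the 3 LNGFR codes and WT Treg code G4 share the letter G, so whether a letter marks a batch was not tested. The depth of E2 (1154626 counts, 54.8% of them on repeat-derived models) limits what WT Treg values below a few CPM can show.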

Other observations

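The median log2 difference from WT Treg of the 25 cell cycle genes was 0.97 for FOXP3 and -0.73 for LNGFR. For the mean of both it was 0.13 with E2 and -0.17 without it, and 0 genes were called in either fit. Their summed level ran from 1463 (N3) to 5543 CPM in the FOXP3 codes and from 942 to 1796 CPM in LNGFR. WT Treg codes G4 and L1 were at 2621 and 2928 CPM, above the LNGFR codes and above N3, and E2 was at 794 CPM, below all others. No test of the list was made.

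The Y-linked genes Ddx3y, Eif2s3y, Kdm5d and Uty were present in every code of all 3 groups. Xist, which is made from the inactive X chromosome of females, stood at 61.9 CPM in WT Treg code E2 and at 0 to 3.36 CPM in the other 10 codes. E2 thus held both kinds of transcript, and the source of its Xist counts was not tested. Lyz2, a myeloid gene, had 0, 13.7 and 55.4 CPM in E2, G4 and L1 and at most 9.86 CPM in a scurfy-origin code.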
